A study of Mus musculus with 90 samples.

Results

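The genes described here are a set of 10, proposed as microglia genes and Csf receptors: Cx3cr1, P2ry12, Tmem119, Csf1r, Csf2ra, Aif1, Itgam, C1qa, C1qb and C1qc. They were matched by symbol to 10 of the 37991 Ensembl gene identifiers in the count table. Cx3cr1, P2ry12, Tmem119, Csf1r, Aif1, Itgam and the C1q genes were taken as microglia genes, and Csf2ra was selected on measured values, because its level was lower after an intruder in amygdala at 120 min. The Csf2ra values of that contrast are therefore given below as a description with no test. Csf2ra also stood apart from the name of the set in part: 9 genes were lower in hypothalamus than in frontal cortex and Csf2ra was not. The r of Csf2ra with the mean of the 9 others was 0.09 in amygdala and -0.64 in hypothalamus. For 30 other microglia-enriched genes the medians were 0.60 and 0.57. In frontal cortex its r was 0.63, against a median of 0.57, so Csf2ra did not stand apart there.

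Amygdala, frontal cortex and hypothalamus were dissected from male C57BL/6J residents that held a territory, after each had lived with a C57BL/6J female that was taken out before the trial. A resident in the intruder groups met an unfamiliar BALB/cJ male held behind wire mesh for 5 min, and a control resident met the same mesh cage with a paper cup in it. The brains were taken 30, 60 or 120 min later, after the resident had been left in the dark. The 3 regions, 3 times and both exposures gave 18 groups and 90 libraries from 32 residents, 28 of which gave all 3 regions; the labels do not give the residents' ages. Groups held 5 libraries, except 3 in hypothalamus control at 30 min and 6 in each frontal cortex group at 120 min. The column names of the count table carry a tag, ISO for all 28 libraries at 30 min and CERV for the 30 at 60 min and the 32 at 120 min. What the tags stand for is not given in the sources used here, and the design text names cervical dislocation for the residents without setting any time apart. Comparisons of 30 min with later times therefore cannot be told apart from the tag, while intruder and control libraries of 1 time share it. The RNA came from whole dissected tissue and not from sorted cells. The design text also says that RNA samples were pooled for library making, while each library carries the number of 1 animal.

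Microglia are the resident macrophages of the brain. They depend on the receptor encoded by Csf1r, which binds the growth factors CSF-1 and interleukin-34, for survival. Csf2ra encodes the ligand-binding chain of the receptor for the growth factor GM-CSF, and it signals together with a shared chain encoded by Csf2rb. Cx3cr1 is the receptor for fractalkine (encoded by Cx3cl1), P2ry12 senses ADP from damaged or active cells, and Tmem119 is a membrane protein used as a marker of microglia. Aif1 encodes the cytoskeletal protein Iba1, Itgam encodes the CD11b chain of an integrin that binds complement fragments, and C1qa, C1qb and C1qc encode the 3 chains of C1q, which starts the classical complement cascade.

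Windows of 250 bases before the gene start were available for 7 of the 10 genes, from RefSeq on GRCm38.p6: P2ry12, C1qb, C1qc, Itgam, Cx3cr1, Aif1 and Csf2ra. The windows of C1qb and C1qc are printed because these genes varied together across libraries in each region, and that of Csf2ra because it varied apart from them over all libraries. Capitals mark GAGGAA or its reverse complement TTCCTC, the core letters of sites of PU.1, the macrophage transcription factor encoded by Spi1. The windows lie on the minus strand at chr4:136886201-136886450 (C1qb), chr4:136892915-136893164 (C1qc) and chr19:61228419-61228668 (Csf2ra).
C1qb: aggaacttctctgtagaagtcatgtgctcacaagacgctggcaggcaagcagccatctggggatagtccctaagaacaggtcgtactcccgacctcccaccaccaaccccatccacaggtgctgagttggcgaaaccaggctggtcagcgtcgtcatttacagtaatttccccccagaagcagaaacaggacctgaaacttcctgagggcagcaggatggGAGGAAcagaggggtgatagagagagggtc
C1qc: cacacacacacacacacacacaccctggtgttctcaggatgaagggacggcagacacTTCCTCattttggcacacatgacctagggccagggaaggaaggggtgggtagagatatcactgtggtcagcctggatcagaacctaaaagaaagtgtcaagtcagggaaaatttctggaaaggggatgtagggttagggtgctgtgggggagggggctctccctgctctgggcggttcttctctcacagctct
Csf2ra: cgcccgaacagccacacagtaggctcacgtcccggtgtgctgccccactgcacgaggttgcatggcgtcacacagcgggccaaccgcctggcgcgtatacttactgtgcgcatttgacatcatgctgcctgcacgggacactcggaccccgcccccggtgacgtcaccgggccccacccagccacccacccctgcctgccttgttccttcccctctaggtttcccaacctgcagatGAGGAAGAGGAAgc
The search covered both strands, and the letters stood in 5 of the 7 windows: 1 time each in Aif1, C1qb and C1qc, and 2 times each in Csf2ra and Itgam. The windows of Cx3cr1 and P2ry12 held none. Of 32851 RefSeq promoter windows of the same length, 23.3% held at least 1 match. In Csf2ra both matches lie next to each other, starting 14 and 8 bases before the gene start. In C1qb the match starts 30 bases before the gene start and in C1qc 193 bases before it. A match describes the letters only and does not show a bound site.

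The libraries held 38.6 M to 58.86 M reads in genes (median 49.0 M), and 8.63% to 14.46% of all reads lay in no annotated gene. All 10 genes had reads in every library and passed the filter on low counts in every fit; the fewest reads in 1 library were 84 for Aif1 and 848 for Csf2ra. Other cell types were present in each dissection: summed over fixed marker lists, microglia markers other than the 10 genes held 413.0 to 707.0 CPM (counts-per-million: a gene's reads scaled to the library's reads in genes), oligodendrocyte markers 1971 to 8514 CPM and neuronal markers 2942 to 9407 CPM. Markers of blood monocytes and neutrophils held 3.195 to 17.82 CPM, most of it Lyz2, which microglia also express, and the neutrophil marker Ly6g was at 0 in 28 of 30 amygdala, 28 of 32 frontal cortex and 27 of 28 hypothalamus libraries. In amygdala 1 library, control replicate 5 at 60 min, held 2581 CPM of choroid plexus markers, against a median of 182.5 CPM over that region. Exons of Itgam share 68.7% of their length with Gm49368 on the same strand, so the reads of Itgam may be split and its values are uncertain. Exons of Csf1r share 15.1% of their length with Hmgxb3 on the other strand, and the strand setting of the counting is not given in the sources used here.

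Of the 10 genes, 9 had their lowest mean in hypothalamus (the plot of CPM by region). Csf1r, which keeps microglia alive, stood at 102.9 ± 6.715 CPM (SD, n = 30) in amygdala, 107.3 ± 6.249 (n = 32) in frontal cortex and 67.73 ± 4.876 (n = 28) in hypothalamus. Cx3cr1, the fractalkine receptor, stood at 43.38 ± 3.519, 44.88 ± 3.549 and 27.0 ± 2.609 CPM in the same order. The hypothalamus libraries of Cx3cr1 ran from 21.79 through a median of 26.95 to 32.18 CPM, and those of frontal cortex from 36.61 through 44.67 to 52.76, so the 2 sets did not overlap. In whole tissue, fewer cells of a type and less RNA per cell cannot be told apart.

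**Figure D1:**
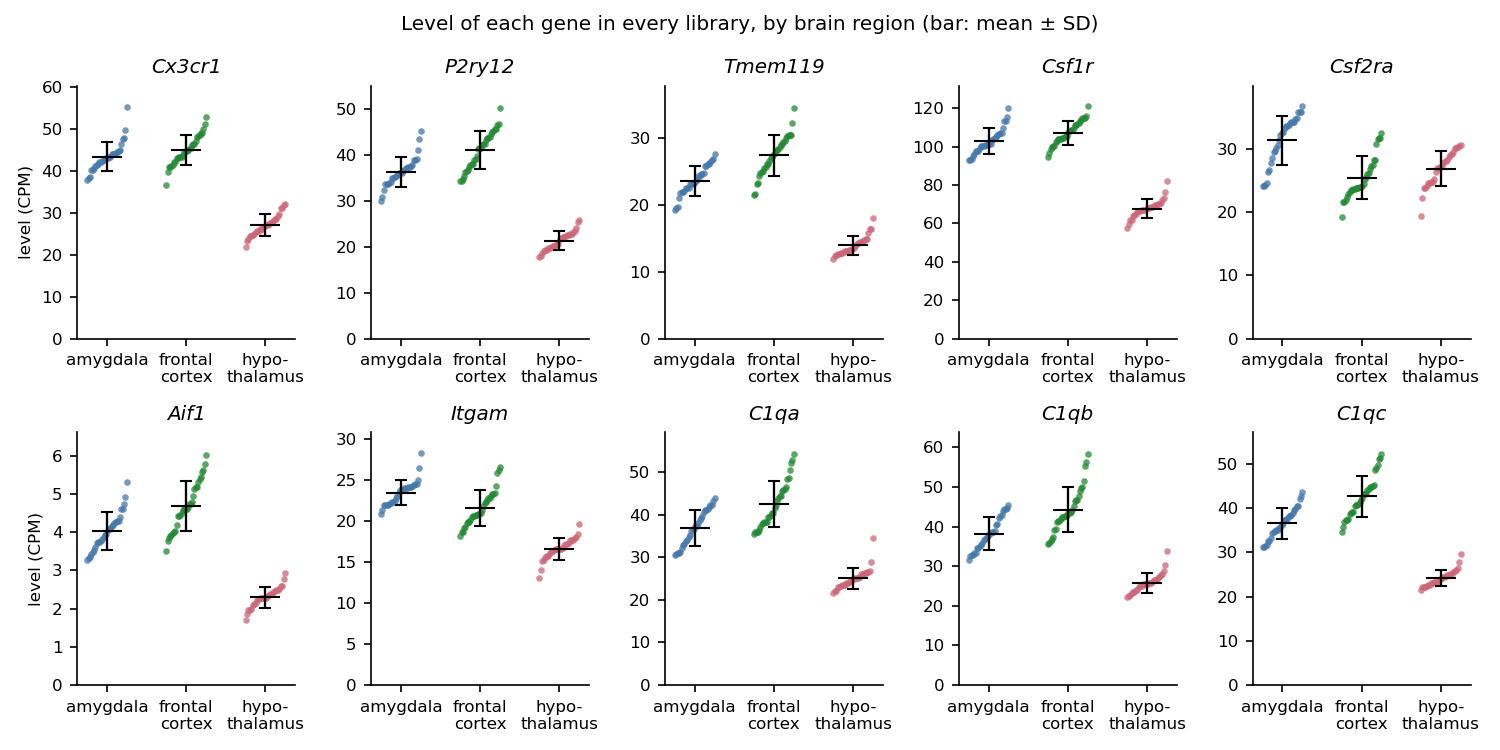
Level of each of the 10 genes in every library, in CPM on a linear axis from 0, by region (amygdala 30, frontal cortex 32 and hypothalamus 28 libraries); points are libraries sorted by value and bars are mean ± SD. The hypothalamus mean is lowest for 9 genes, while the Csf2ra libraries overlap between all 3 regions.

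Of the 10 genes, 9 were lower in hypothalamus than in frontal cortex by the quasi-likelihood test of edgeR, adjusted over all genes; called here means an adjusted p below 0.05. That is 9 of 10 called, beside 87.4% of all 18337 genes tested in this contrast, so the count itself is near the background, and the sizes carry the description. The median log2 difference of the 10 genes was -0.76, against 0.02 over all genes. Aif1 differed most, with 4.686 ± 0.6446 CPM in frontal cortex and 2.299 ± 0.2716 in hypothalamus (log2 difference -1.03 ± 0.042 SE). Tmem119 followed with 27.39 ± 3.005 and 13.93 ± 1.426 CPM (-0.97 ± 0.036) and P2ry12, the ADP receptor, with 41.06 ± 4.191 and 21.31 ± 2.106 CPM (-0.94 ± 0.034). In each of the 9 genes all 28 residents with both regions had the lower value in hypothalamus, and the libraries of both regions did not overlap for 8 of them. How many of all genes separated in this way was not counted.

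The C1q chains formed a narrow group in this contrast. C1qc differed by -0.81 ± 0.032, C1qb by -0.77 ± 0.037 and C1qa by -0.76 ± 0.040 on the log2 scale, so hypothalamus held 57.0%, 58.6% and 59.2% of the frontal cortex level. Cx3cr1 differed by -0.73 ± 0.030 and Csf1r by -0.66 ± 0.024. Itgam had the smallest difference of the 9, -0.38 ± 0.028, with overlapping libraries (13.01 to 19.59 CPM in hypothalamus and 18.19 to 26.59 in frontal cortex). Adjusted p-values of the 9 genes lay between 1.59e-40 and 2.24e-21 in edgeR.

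Csf2ra did not take part in this difference. Its level was 26.83 ± 2.794 CPM in hypothalamus (19.35 to 30.6, median 27.19) and 25.43 ± 3.352 in frontal cortex (19.28 to 32.44, median 24.04), so the ranges lay nearly on top of each other. The log2 difference was 0.07 ± 0.039 (95% interval -0.004 to 0.148; edgeR adjusted p = 0.0736), and 16 of 28 residents had the higher value in hypothalamus and 12 the lower. The interval does not reach the differences of the other 9 genes. With the animal as a block, which pairs the regions of 1 resident, Csf2ra was called higher in hypothalamus (0.08, edgeR adjusted p = 0.0407); it was also called with upper-quartile scaling (0.14, 0.00139), in 120 min libraries alone (0.13, 0.0448) and without replicate 4 (0.0304) or replicate 5 (0.0257).

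**Figure D2:**
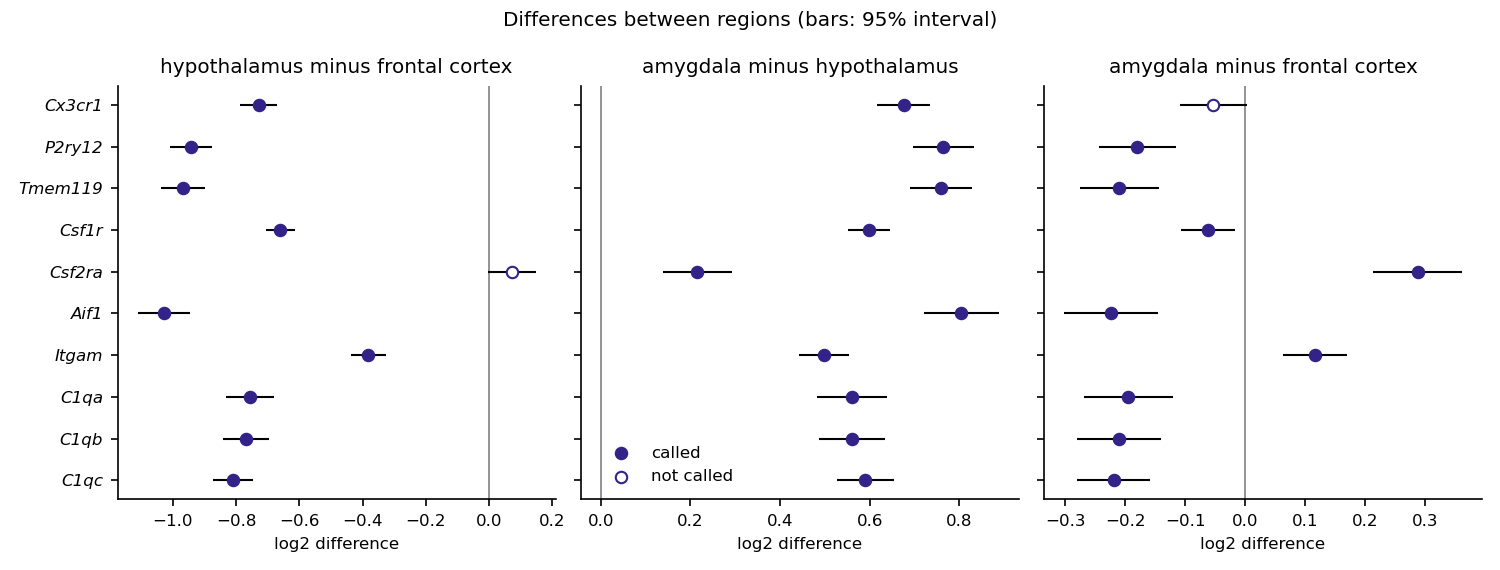
Log2 difference between regions for each of the 10 genes in the 3 region contrasts, from the edgeR fit of 90 libraries; bars are the 95% interval, filled points are called and open points are not. In hypothalamus minus frontal cortex 9 genes lie between -1.03 and -0.38 and Csf2ra lies at 0.07.

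All 10 genes were higher in amygdala than in hypothalamus, where 80.1% of all genes were called. The median log2 difference was 0.59, against 0.006 over all genes. Aif1 led with 0.80 ± 0.043, followed by P2ry12 with 0.76 ± 0.035, Tmem119 with 0.76 ± 0.036 and Cx3cr1 with 0.68 ± 0.030. Csf1r differed by 0.60 ± 0.024, the C1q chains by 0.56 to 0.59 and Itgam by 0.50 ± 0.029. Csf2ra had the smallest difference, 0.22 ± 0.039, with the higher value in amygdala in 24 of 28 residents.

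Amygdala and frontal cortex lay close together, and here the genes split by direction. Of the 10, 9 were called, beside 76.7% of all genes. Aif1 (-0.22 ± 0.040), C1qc (-0.22 ± 0.031), C1qb (-0.21 ± 0.036), Tmem119 (-0.21 ± 0.034), C1qa (-0.20 ± 0.038), P2ry12 (-0.18 ± 0.033) and Csf1r (-0.06 ± 0.023) were lower in amygdala. Csf2ra was higher there by 0.29 ± 0.038, in 28 of 30 residents, and Itgam by 0.12 ± 0.027, in 23 of 30. The directions of Itgam and Csf1r did not hold at every time. With 30 min libraries alone Itgam lay at -0.02, and 4 of the 10 genes were called, beside 11479 of 17851 genes tested. With 120 min libraries alone Csf1r lay at 0.002. Csf1r was also not called without replicate 4 (edgeR adjusted p = 0.0616). Cx3cr1 differed by -0.05 ± 0.028 and was not called (adjusted p = 0.0835; 0.042 without the amygdala library rich in choroid plexus markers, and 0.0449 without replicate 6).

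The amygdala libraries at 120 min, control and intruder, chose Csf2ra, so its region differences were also taken from 30 and 60 min libraries alone, a fit added after seeing the data. There Csf2ra was higher in amygdala than in frontal cortex by 0.28 ± 0.049 (edgeR adjusted p = 1.98e-06) and than in hypothalamus by 0.24 ± 0.051 (4.26e-05). Hypothalamus and frontal cortex differed by 0.04 ± 0.051 in the same fit (0.474). The difference between amygdala and frontal cortex was 0.42 at 30 min, where it was called, and 0.15 at 60 min, where it was not (adjusted p = 0.0992). Against hypothalamus the values were 0.33 at 30 min and 0.15 at 60 min, the latter again not called (0.0989). In the fit of 30 and 60 min libraries Itgam was not called between amygdala and frontal cortex (0.07, adjusted p = 0.0931).

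Levels can be set between genes only per exon length. On that scale (CPM per kilobase of exon), C1qa and C1qb were highest, with means of 40.76 and 40.72 in frontal cortex, followed there by C1qc with 22.07, Csf1r with 18.58 and P2ry12 with 16.13. Tmem119 stood at 11.83, Cx3cr1 at 9.963, Csf2ra at 8.856, Itgam at 4.297 and Aif1 at 3.059. C1qa and C1qb differed by far less than their SDs (5.200 and 5.311). In hypothalamus C1qa (24.08) and C1qb (23.72) were again highest, and Csf2ra (9.346) stood above P2ry12 (8.371), Tmem119 (6.017) and Cx3cr1 (5.994), although Csf2ra and P2ry12 overlapped within their SDs (0.9733 and 0.8270). Exon lengths come from Gencode M21, a newer annotation than the build of the counts.

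The ligands of the Csf1r receptor went in opposite directions. Il34, the interleukin-34 gene, had a median of 67.27 CPM in frontal cortex, 56.49 in amygdala and 26.35 in hypothalamus, and was lower in hypothalamus than in frontal cortex by 1.37 ± 0.031 on the log2 scale. Csf1 had medians of 18.90, 19.27 and 30.97 CPM and was higher in hypothalamus than in frontal cortex by 0.75 ± 0.029. The hypothalamus libraries of both ligands (22.56 to 33.40 CPM for Il34 and 26.46 to 36.93 for Csf1) did not overlap those of the other regions. Between amygdala and frontal cortex Il34 was lower in amygdala by 0.27 and Csf1, at 0.04, was not called.

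The partners of Csf2ra were expressed at low levels. Csf2, the gene of GM-CSF itself, was at 0 in 28 of 30 amygdala, 32 of 32 frontal cortex and 21 of 28 hypothalamus libraries and did not pass the low-count filter. Csf2rb, the chain shared with Csf2ra, had medians of 1.014, 1.040 and 0.7909 CPM in amygdala, frontal cortex and hypothalamus, and was lower in hypothalamus than in frontal cortex (-0.42 ± 0.072, edgeR adjusted p = 1.84e-07). Its close copy Csf2rb2 was higher there (0.70 ± 0.169), with libraries from 0.3377 to 4.450 CPM; reads of the 2 copies may be split, so both are uncertain. Il3ra, the interleukin-3 receptor chain, was higher in hypothalamus (0.63 ± 0.069) and Csf3r, the receptor of G-CSF, was lower (-0.76 ± 0.049). Of 8 genes in this list of CSF ligands and receptors, 6 were tested and all 6 were called, 3 in each direction, beside 87.4% of all genes.

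Downstream of Csf2ra, 9 of 10 listed signalling genes were called between hypothalamus and frontal cortex, 3 higher and 6 lower in hypothalamus, a share near the 87.4% of all genes. Stat5b (1.32 ± 0.022), a transcription factor activated by the receptor, was higher. The kinases Lyn (-0.65 ± 0.039) and Jak2 (-0.36 ± 0.024) and the feedback inhibitor Socs2 (-1.08 ± 0.065) were lower. These genes are also expressed by other brain cells.

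Cx3cl1, the neuronal ligand of Cx3cr1, was lower in hypothalamus, as its receptor was. Its medians were 1008 CPM in frontal cortex, 581.9 in amygdala and 267.2 in hypothalamus, a log2 difference of -1.85 ± 0.030 between hypothalamus and frontal cortex. Of 8 neuronal markers 5 were called lower in hypothalamus and 1 higher, beside 87.4% of all genes called in this contrast. Their median log2 difference was -0.99, and their part in the Cx3cl1 result was not tested. Among purine genes related to P2ry12, the ectonucleotidase gene Entpd1 (-0.45 ± 0.031) and the adenosine receptor gene Adora3 (-0.88 ± 0.076) were lower in hypothalamus and the potassium channel gene Kcnk13 (0.57 ± 0.042) was higher.

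The complement partners of C1q did not follow its 3 chains. Of 14 listed genes 13 were called between hypothalamus and frontal cortex, 6 higher and 7 lower, with a median of -0.12, again close to the share over all genes. C1ra, a protease that C1q activates, was lower in hypothalamus by 2.93 ± 0.126 on the log2 scale. C3 (4.11 ± 0.178) and C4b (1.55 ± 0.076), later components of the cascade, and Cd59a (1.30 ± 0.060), which blocks its last step, were higher. The level of C3 was low in all regions, with medians of 0.1622 CPM in frontal cortex and 2.952 in hypothalamus.

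Genes tied to microglial activation were mixed as well. Of 16 listed, 13 were tested and 11 called between hypothalamus and frontal cortex, 4 higher and 7 lower, with a median of -0.51, no more often than the 87.4% over all genes. Lpl, a lipase (-2.12 ± 0.116), the costimulatory gene Cd86 (-0.80 ± 0.052) and the cytokine gene Il1b (-3.23 ± 0.234) were lower in hypothalamus, and Lgals3, a galectin (2.19 ± 0.150), was higher.

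A separate list of 30 microglia-enriched genes was lower in hypothalamus, as the 9 genes were. Counts of calls here stand beside 87.4% of all genes, so the directions and sizes carry the description. All 30 were called between hypothalamus and frontal cortex, 29 lower and 1 higher, with a median log2 difference of -0.70, against 0.02 over all genes. Fcrls (-1.15 ± 0.037), Inpp5d (-0.97 ± 0.036), Trem2 (-0.95 ± 0.040) and Siglech (-0.73 ± 0.030) were among the lower ones; the exception, named after its value was seen, was Rgs10 (0.82). Markers of border macrophages, which line vessels and meninges and share several of the 10 genes, were all lower too: 10 of 10 were called, with a median of -1.19 (Pf4 -1.49, Mrc1 -1.22), and their summed level was 23.61 to 48.59 CPM in hypothalamus and 54.98 to 84.09 CPM in frontal cortex. Oligodendrocyte markers went the other way (8 of 8 higher in hypothalamus, median 0.62), and endothelial (9 of 10 lower, median -0.54) and red cell markers (5 of 5 lower, median -0.47) were lower. The part of these other cells in the differences of the 10 genes was not tested.

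Within groups, 9 genes varied together across libraries, while the relation of Csf2ra to them differed between regions. The measure is Pearson's r of log2 CPM after each group's mean was removed, over 90 libraries that share animals, leading indexes (the first index of the pair that tags a library) and depth; it is given as a description. Among the 9 genes the 36 pairs had r from 0.20 to 0.91 (median 0.52), and the C1qa, C1qb and C1qc pairs had 0.85 to 0.91. Pairs of Csf2ra with the 9 others had -0.23 to 0.17 (median 0.08), a value that pools positive pairs in frontal cortex with negative ones in hypothalamus. Spearman values were alike, with medians of 0.53 and 0.10.

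In frontal cortex Csf2ra varied with the 9 others: its pairs with them had r of 0.05 to 0.79 (median 0.56, 32 libraries), with C1qc at the top, against a median of 0.46 among the 9. Its r with their mean was 0.63 there, at position 208 of 16626 genes. In amygdala they had -0.07 to 0.26 (median 0.07, 30 libraries), and in hypothalamus all were negative, -0.70 to -0.33 (median -0.47, 28 libraries), with P2ry12 lowest. Pairs among the 9 had medians of 0.58 in amygdala and 0.54 in hypothalamus. With each library left out in turn, a check added after seeing the data, the median stayed at 0.48 to 0.64 in frontal cortex and at -0.53 to -0.38 in hypothalamus. The amygdala median moved between -0.06, without 120 min intruder replicate 3, and 0.19, without 60 min control replicate 1. The hypothalamus library with the lowest Csf2ra level, 120 min intruder replicate 1, also held the highest C1qa, C1qb and C1qc levels of its region, and without it the hypothalamus pairs had r of -0.73 to -0.16 (median -0.39, 27 libraries). Shares of reads moved with Csf2ra and with the others. Csf2ra had r of 0.79 with the share of ambiguous reads in frontal cortex, and of 0.60 with the share in no gene and -0.67 with the share of non-unique alignments in hypothalamus. The mean of the 9 others had r of 0.68 with the share of ambiguous reads in frontal cortex, and of 0.83, 0.67 and 0.36 with the share of non-unique alignments in amygdala, frontal cortex and hypothalamus. Of single genes Tmem119 had 0.83 with the latter share in amygdala. The part of these library properties in the correlations was not tested.

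**Figure D3:**
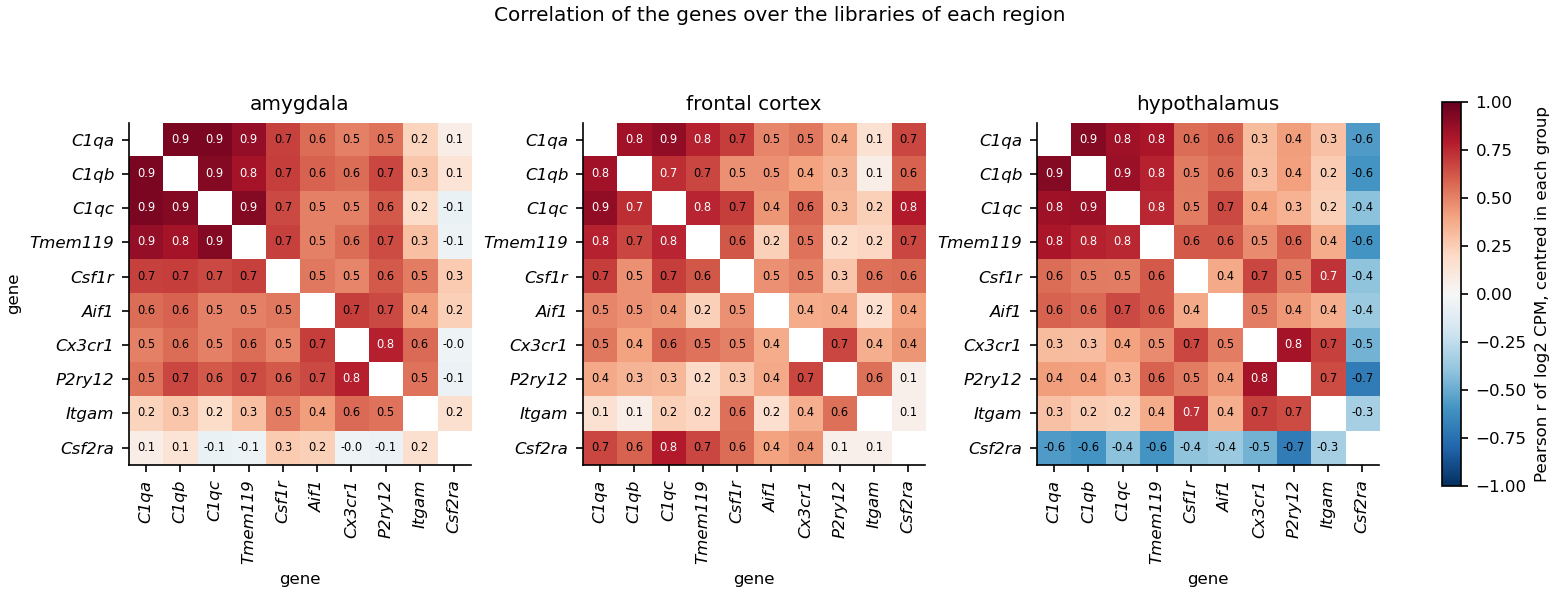
Pearson's r of group-centred log2 CPM between each pair of the 10 genes, as a color map from -1 to 1 for amygdala (30 libraries), frontal cortex (32) and hypothalamus (28), with r rounded in each cell. The Csf2ra row runs from -0.07 to 0.26 in amygdala, from 0.05 to 0.79 in frontal cortex and from -0.70 to -0.33 in hypothalamus.

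Among the genes with the pattern most like the mean of the 9 were Selplg (r = 0.79), the mitochondrial gene mt-Co3 (0.77), Laptm5 (0.76) and Trem2 (0.75), among 16626 genes over 90 libraries. Selplg, Laptm5 and Trem2 belong to the list of 30 microglia-enriched genes, whose median r with the mean of the 9 was 0.58, against 0.01 over all genes (percentiles 5 and 95 at -0.40 and 0.41). In amygdala alone the list's median was 0.60 and the 95th percentile of all genes 0.66, so a likeness of that size was not particular to the list there. The genes most like Csf2ra were Mbd6 (0.86), Man2c1 (0.83), Rgl2 (0.82), Dtx3 (0.81) and Leng8 (0.80), among 16634 genes. None of these 5 is in any marker list used here, and the highest-ranked of the 9 other genes, C1qc, came at position 3752. That order pools regions that differ: in frontal cortex alone C1qc came at position 98 (r = 0.79), C1qa at 474 and Tmem119 at 501.

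None of the 10 genes passed the test for the intruder outside amygdala at 120 min. In those 8 contrasts 0 of the 10 genes were called by edgeR, DESeq2 or limma voom, and 4 of the gene values had an unadjusted p under 0.05 in edgeR, beside 4.96% of the values of all genes over these contrasts, which is near the share for the 10. In 7 of these contrasts 0.0% of all genes were called and in hypothalamus at 120 min 0.192%. The 4 values were C1qb in frontal cortex at 30 min (-0.15 ± 0.072, adjusted p = 0.771), Cx3cr1 in hypothalamus at 60 min (-0.16 ± 0.075, adjusted p = 1), and Itgam (-0.16 ± 0.071, adjusted p = 0.411) and Csf2ra in hypothalamus at 120 min. Among them Csf2ra had the largest difference.

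In amygdala at 120 min, the contrast that chose Csf2ra, the 5 control libraries held 36.77, 33.79, 33.98, 31.32 and 33.26 CPM of Csf2ra (replicates 1, 2, 3, 4 and 6). The 5 intruder libraries held 24.55, 24.03, 29.61, 24.08 and 24.18 CPM (replicates 1, 2, 3, 4 and 6). All intruder values lay below all control values, and 4 of them lay within 1 CPM of each other. The means were 33.82 ± 1.954 and 25.29 ± 2.423 CPM (SD, n = 5 each), a log2 difference of -0.42 ± 0.068, or 25.2% less; 0.538% of all genes were called in this contrast. The other 9 genes differed by -0.09 to 0.09 there. Of these 9, Itgam alone had groups that did not overlap, with 21.99 to 23.36 CPM in controls and 23.81 to 24.95 after the intruder. Its log2 difference was 0.09 ± 0.060 and was not called (edgeR adjusted p = 0.461). The share of all genes with groups apart in this contrast was not counted, so the gap does not set Itgam apart.

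**Figure D4:**
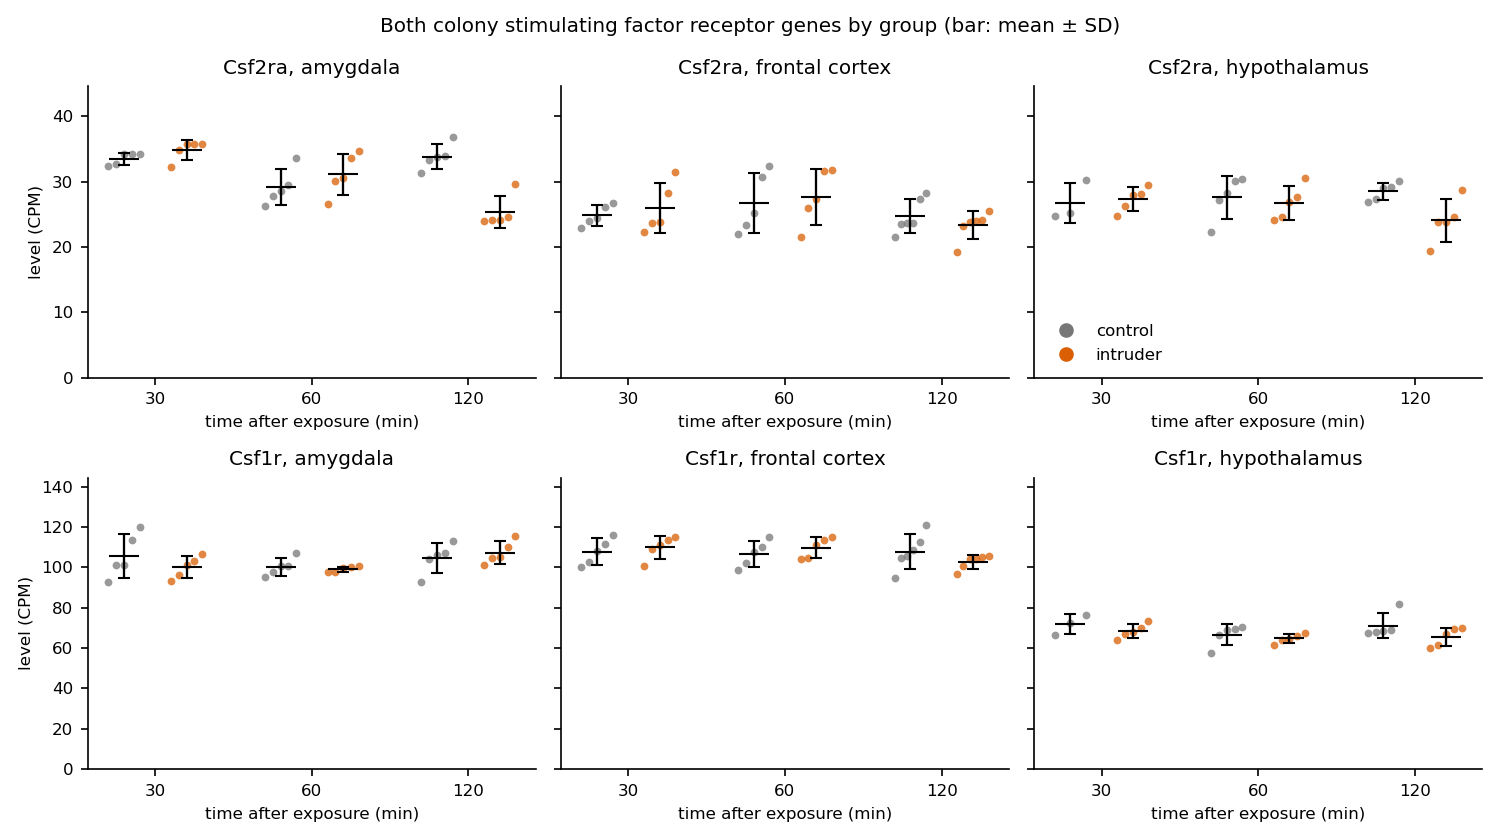
Csf2ra (upper row) and Csf1r (lower row) in every library, in CPM on a linear axis from 0, by region, time (as categories) and exposure; points are libraries sorted by value and bars are mean ± SD. In amygdala at 120 min the Csf2ra intruder libraries (24.03 to 29.61) lie below the control libraries (31.32 to 36.77), while the Csf1r groups overlap.

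Several other measures moved with Csf2ra in that contrast. All 5 controls carried 1 leading index, and 4 of the 5 intruder libraries carried another; intruder replicate 6, which carried the controls' index, held 24.18 CPM. With the leading index as a block the log2 difference was -0.48. That block sets intruder replicate 6 alone against the controls, since no other amygdala group carried their index. It therefore rests on 1 intruder library and does not separate index from exposure. The share of reads in no gene was 11.03% to 12.8% in controls and 12.3% to 13.5% after the intruder. Endothelial markers summed to 184.2 to 305.6 CPM in controls and 169.6 to 238.8 CPM after the intruder, with all 10 below control by the fitted difference (median -0.42). Oligodendrocyte markers summed to 2531 to 5381 and 3261 to 6820 CPM, with all 8 above control (median 0.42). The 30 other microglia-enriched genes summed to 554.5 to 653.6 and 585.1 to 667.9 CPM (median difference 0.03). The part of these measures in the Csf2ra difference was not tested.

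Csf2ra at the other times and regions stood as follows. In amygdala at 30 min controls held 32.4 to 34.22 CPM and intruder libraries 32.23 to 35.81 (0.06 ± 0.067). At 60 min they held 26.31 to 33.65 and 26.62 to 34.61 (0.09 ± 0.068), so the groups overlapped at both times. The 60 min control with the highest value, replicate 1, carried the leading index of the 5 intruder libraries, and the other 4 controls, at 26.31 to 29.51 CPM, carried another, which 4 of the 5 intruder libraries at 120 min (24.03 to 29.61 CPM) carried too. The part of the leading index in these levels was not tested beyond the block.

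In hypothalamus at 120 min Csf2ra was lower on average after the intruder without being called. The hypothalamus and frontal cortex libraries of that time include the residents whose amygdala libraries chose Csf2ra, so they are not a separate sample of animals. Controls held 30.08, 29.11, 29.07, 27.29 and 26.9 CPM and intruder libraries 19.35, 24.54, 23.85, 28.7 and 23.86 CPM. Of the intruder libraries, 4 lay below all controls and 1 lay among them. The log2 difference was -0.25 ± 0.089 (95% interval -0.423 to -0.073; edgeR adjusted p = 0.33). Without intruder replicate 1, the lowest library, it was -0.18 and also not called. That library held 10.05% of its reads in no gene, against 12.06% to 12.6% in the other intruder libraries of its group. Non-unique alignments made up 10.88% in it, against 9.92% to 10.3% in the others. The part of these shares in its Csf2ra value was not tested. The frontal cortex difference at the same time was -0.08 ± 0.098 (95% interval -0.27 to 0.116, adjusted 0.993), with 21.57 to 28.28 CPM in 6 controls and 19.28 to 25.55 CPM in 6 intruder libraries. At 30 and 60 min the differences in frontal cortex and hypothalamus were -0.04 to 0.06. Endothelial markers were lower after the intruder in hypothalamus at 120 min, where 5 of 10 were called (median -0.47), beside 0.192% of all genes, and their part in the Csf2ra value was not tested. The 34 calls over all genes in this contrast fell to 6 with a replicate block and to 0 with only the 2 groups fitted.

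Whether the intruder effect differed between regions or times was tested directly. Of the 9 genes other than Csf2ra, 0 were called between regions at 30, 60 or 120 min by edgeR, DESeq2 or limma voom. Over all genes edgeR called 0.0% at each time. Itgam had an unadjusted edgeR p under 0.05 at 120 min, beside 1098 of 17625 genes tested. At 30 and 60 min none of the 9 did. The 120 min test holds the libraries that chose Csf2ra, so its value is not given. Between times 0 of the same 9 were called in each region by edgeR, beside 0.0% of all genes in amygdala and frontal cortex and 0.0113% in hypothalamus. For Csf2ra the amygdala test again holds those libraries, and its value is not given. Of the other 9 genes, C1qb in frontal cortex was the only one with an unadjusted edgeR p under 0.05, beside 761 of 17091 genes tested there.

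Several of the genes differed between the times in frontal cortex, where the 30 min libraries also carry another column tag. In control libraries Aif1 (edgeR adjusted p = 0.00856) and C1qa (0.0208) differed between 30, 60 and 120 min, 2 of 10 genes, beside 33.4% of all genes. In intruder libraries 7 of 10 were called, beside 46.1% of all genes: C1qb (3.01e-05), C1qc (0.000151), C1qa (0.000444), Itgam (0.00205), Aif1 (0.00244), Tmem119 (0.00486) and P2ry12 (0.0468). The share in intruder libraries lies above the background and that in controls below it, and the difference between the exposures was not called for any of the 10. Between 60 and 120 min alone, which share the tag CERV but not the leading index, 4 of 10 were called in intruder libraries, beside 20.6% of all genes: C1qb (-0.30 ± 0.068 from 60 to 120 min, edgeR adjusted p = 0.00906), Aif1 (-0.38 ± 0.089, 0.00957), C1qc (-0.27 ± 0.064, 0.0104) and C1qa (-0.30 ± 0.077, 0.0135). Among controls 1 of 10 was called in that fit, Aif1 (-0.34 ± 0.089, 0.0211), beside 13.4% of all genes. Itgam, Tmem119 and P2ry12 were not called between these times in either exposure. With the leading index as a block, 0 of 10 were called by edgeR in intruder libraries, beside 0.0% of all genes. This fit rests on 5 controls at 60 min that carry 2 indexes. C1qa lay at -0.30 ± 0.142, C1qc at -0.26 ± 0.118, C1qb at -0.25 ± 0.125, Aif1 at -0.29 ± 0.161 and Csf2ra at -0.43 ± 0.191. Itgam (0.21 ± 0.1) and P2ry12 (0.20 ± 0.136) were positive, while without the block they lay at -0.03 and -0.12. In edgeR 4 of 10 genes (C1qa, C1qc, Csf2ra and Itgam) had an unadjusted p under 0.05, beside 4333 of 16864 genes tested. No such fit could be made for controls.

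The C1q chains had their highest means at 60 min in both exposures. In intruder libraries C1qb held 35.72, 35.82, 36.46, 37.5 and 43.47 CPM at 30 min and 43.37, 49.05, 55.23, 56.33 and 58.36 CPM at 60 min. At 120 min the 6 libraries held 39.08 to 49.75 CPM (median 42.25). The means were 37.79 ± 3.252, 52.47 ± 6.161 and 42.73 ± 3.922, so the 60 min mean was 38.8% above the 30 min mean. In controls the C1qb means were 41.81 ± 3.494, 48.03 ± 2.838 and 43.48 ± 1.913 CPM, with 14.9% between 30 and 60 min, and C1qb was not called (adjusted p = 0.0792). C1qa, called in both exposures, had means of 38.60, 46.71 and 41.83 CPM in controls and 38.10, 49.42 and 40.23 CPM in intruder libraries.

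Other genes followed other courses in frontal cortex. Aif1 was highest at 60 min and lowest at 120 min, with means of 4.781, 5.237 and 4.140 CPM in controls and 4.616, 5.406 and 4.155 CPM after the intruder. Itgam had its highest mean at 30 min after the intruder (24.56, 20.68 and 20.22 CPM), and P2ry12 had falling means (43.96, 40.77 and 37.52 CPM). Without single libraries P2ry12 was called in 12 of 32 fits, and the control count ranged from 1 gene without 60 min control replicate 5 to 4 genes without 60 min control replicate 6, 60 min intruder replicate 1 or 120 min intruder replicate 5. Csf1r, Csf2ra and Cx3cr1 were called in neither exposure.

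**Figure D5:**
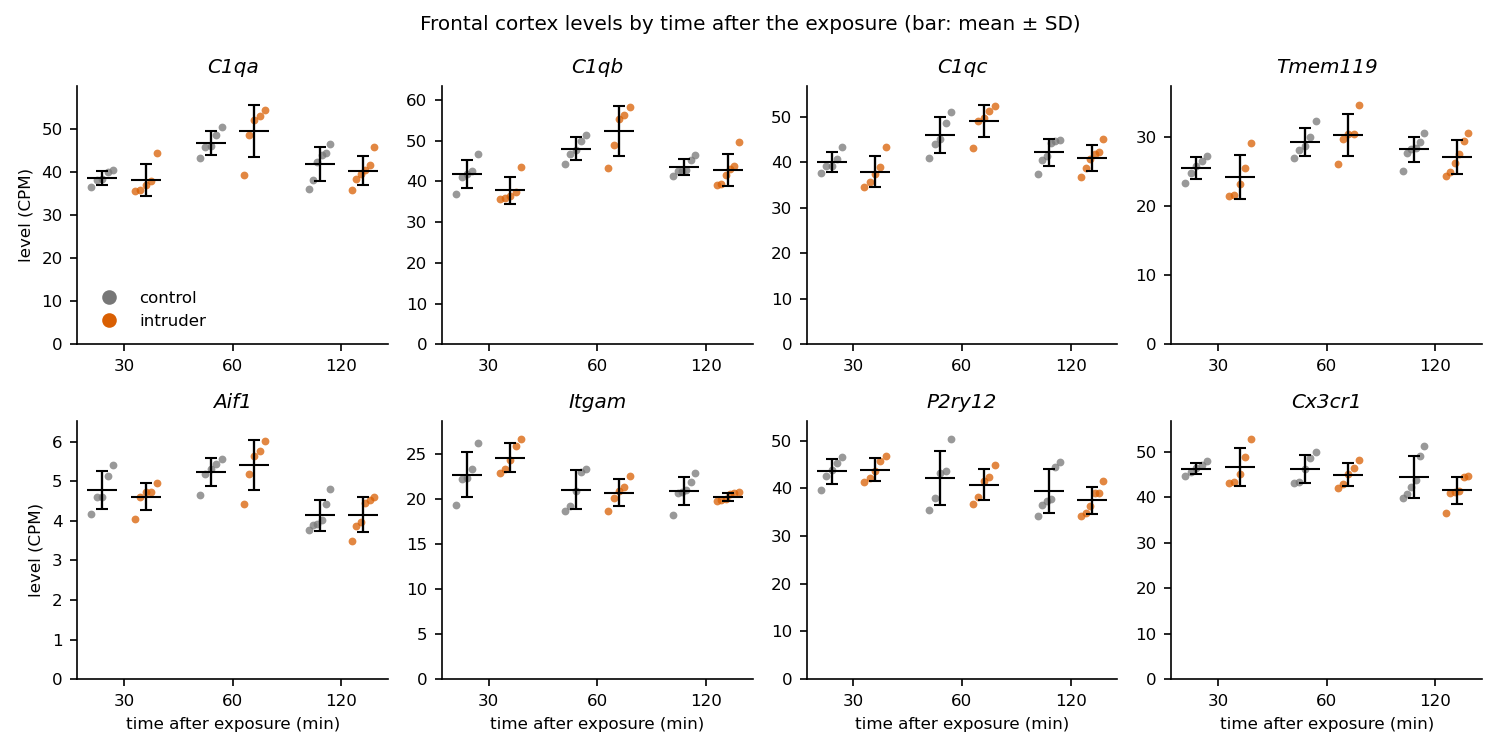
Levels of 8 of the genes in frontal cortex, in CPM on linear axes from 0, at 30, 60 and 120 min (as categories) for control and intruder libraries (5 or 6 each); points are libraries sorted by value and bars are mean ± SD. The C1q chains have their highest means at 60 min in both exposures, and the P2ry12 intruder means run from 43.96 at 30 min to 37.52 at 120 min.

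Leading index, column tag and read shares moved with time in frontal cortex. The 30 min libraries carried the tag ISO and indexes that the 60 min libraries did not, so a fit of all 3 times with index as a block could not be made, and tag and index cannot be told apart from 30 min against later times. Index also separated 60 from 120 min within each exposure: all 5 intruder libraries at 60 min carried 1 index and all 6 at 120 min another, and the 6 controls at 120 min carried an index that no 60 min control did. Reads in no gene made up 10.99% to 13.19% of all reads at 30 min, 8.63% to 10.29% at 60 min and 9.46% to 11.3% at 120 min, so the 30 and 60 min libraries did not overlap. Ambiguous reads made up 0.658% to 0.706%, 0.689% to 0.761% and 0.671% to 0.719% in the same order. The part of these shares in the time differences was not tested. Of the 30 other microglia-enriched genes 6 were called by time in controls, below the 33.4% of all genes, and 15 in intruder libraries, near the 46.1%, Selplg (0.000125) and Cd33 (0.000238) with the smallest adjusted p-values of edgeR in the latter. Oligodendrocyte markers (8 of 8) and red cell markers (4 of 5) were called in both exposures as well.

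In amygdala and hypothalamus none of the 9 genes other than Csf2ra passed the test for time. Among controls 0 of the 9 genes other than Csf2ra were called in either region by edgeR, DESeq2 or limma voom. Over all genes edgeR called 0.232% in amygdala and 0.181% in hypothalamus. P2ry12 had an unadjusted edgeR p under 0.05 in amygdala, beside 1881 of 17277 genes tested. In hypothalamus none of the 9 had one. Among intruder libraries none were called in hypothalamus (1.49% of all genes, and no unadjusted p under 0.05). In amygdala none of the 9 genes other than Csf2ra were called by edgeR, DESeq2 or limma voom, beside 12.9% of all genes. Aif1 alone of them had an unadjusted edgeR p under 0.05 in amygdala, beside 4918 of 17277 genes tested. Csf2ra had means of 34.87, 31.10 and 25.29 CPM there at 30, 60 and 120 min, given with no test because the last of them comes from libraries that chose it.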

How the data were processed

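Total RNA of 90 dissected brain samples was made into strand-specific poly(A) libraries and read single-end, per the labels' protocols. The authors deposited 1 table of raw counts, whole reads per Ensembl gene and library; the submitters' processing notes name CASAVA 1.8.2, TopHat2 2.0.8, HTSeq 0.6.1, edgeR 3.2.4, R 3.0.0 and the build NCBIM37. The strand setting of the counting is not given in the sources used here. Symbols, exon lengths and overlaps came from Gencode M21 (32919 of 37991 identifiers had a symbol), and 5 summary rows without a gene were left out.

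Columns were matched to samples by region, time, exposure, number and index pair. Counts were tested with edgeR 4.0.16 (quasi-likelihood, TMM scaling, filterByExpr) in R 4.3.3, with Benjamini-Hochberg adjustment over all genes tested and a threshold of 0.05. Contrasts of exposure and time were fitted on all libraries of 1 region, contrasts of regions on all 90 libraries, and the test of the intruder effect between regions on all libraries of 1 time. Levels are CPM on TMM-scaled library sizes; log2 CPM used a prior count of 2. Intervals are 95% (1.96 SE). The steps were tested on simulated data.

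The 10 genes and the other lists were chosen with earlier results of these data known, and no result here is independent of that choice. Other genes were named by rule: up to 4 called genes of a list per comparison by smallest adjusted p, ligands and receptor partners whether called or not, and the 5 genes most like Csf2ra or the mean of the 9 others, of which 1 is not reported here. Replicate numbers did not pair intruder with control libraries (r of deviations -0.43 to 0.49 over 41 pairs, median 0). Regions of 1 animal are paired by the labels (86 pairs, r -0.17 to 0.29, median 0.075), and the blocked fit was an alternative. Other alternatives were DESeq2 1.42.0, limma voom 3.58.1, upper-quartile and RLE scaling, and no low-count filter. Replicate number or leading index as a block, only the 2 groups compared, and subsets of libraries were further ones. Each library was left out in turn in the fits of 1 region and of 1 time. For contrasts of regions each replicate number was left out instead. Some fits were added after seeing the data. These were contrasts of regions without the amygdala library rich in choroid plexus markers, and fits of 30 and 60 min or of 60 and 120 min libraries. The latter were also fitted with an index block. Animals are the replicates; the p-values measure the spread between these libraries.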

Additional observations from a re-analysis of the deposited data

Results flagged for a closer look

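Within groups of 4 to 10 libraries, 18 of 170 gene-by-group sets had 1 library that stood apart from the rest by Dixon's gap test, where chance alone gives about 1 in 20. In amygdala these were Cx3cr1 in control replicate 5 at 30 min (55.13 CPM, the highest), and at 120 min Csf2ra in intruder replicate 3 (29.61, the highest), Aif1 in control replicate 1 (4.913, the highest) and in intruder replicate 3 (4.299, the highest), Itgam in intruder replicate 4 (24.95, the highest) and C1qc in control replicate 3 (31.24, the lowest). Csf2ra in that intruder library lies nearest to the controls, and the other 4 intruder libraries lie at 24.03 to 24.55 CPM.

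In hypothalamus 1 library recurred for the C1q chains: intruder replicate 1 at 120 min was highest for C1qa (34.57 CPM), C1qb (33.73) and C1qc (29.63), and that library was also the lowest of its group for Csf2ra (19.35). Control replicate 2 at 120 min was highest for Csf1r (81.99), Itgam (19.59) and C1qb (30.27). Control replicate 2 at 60 min was lowest for Csf1r (57.49) and Itgam (14.04), and intruder replicate 2 at 120 min was highest for Cx3cr1 (27.7).

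In frontal cortex intruder replicate 5 at 30 min was highest for C1qa (44.38 CPM) and C1qb (43.47), and intruder replicate 1 at 120 min was lowest for Csf2ra (19.28). The cause of these single values was not tested.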

How the results depend on the processing

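The 24 counts of genes called gave 844 values under alternative settings, and 824 of these stayed within 1.5 times. Many of the 824 are counts of 0 that stayed at 0 with a single library left out. The amygdala against frontal cortex count was 4 with 30 min libraries only, beside 11479 of 17851 genes tested. The count over times in frontal cortex controls was 5 with a replicate block, beside 5894 of 17091 genes tested. It was 1 with 60 and 120 min libraries only (13.4% of all genes), and 1 to 4 with single libraries left out. Over times in frontal cortex intruder libraries it was 4 with 60 and 120 min only (20.6%) and 0 when these had an index block (0.0%). In amygdala Csf2ra was the only gene behind 2 further counts, on libraries that chose it, so these are no results: over intruder times 0 with the leading index as a block and 0 with 60 and 120 min only, and for the intruder effect between times 1 with DESeq2, 1 with limma voom and 0 to 1 with single libraries left out. For amygdala at 120 min, where Csf2ra was chosen, the count was 0 with only the 2 groups fitted. The index block there sets 1 intruder library against the 5 controls, so no count is drawn from it. Over all genes that contrast had 93 calls (51 higher, 42 lower), 413 in DESeq2 and 134 with upper-quartile scaling (50 higher, 84 lower). It had 12 with no low-count filter, 199 with a replicate block and 0 with 2 groups. Hypothalamus at 120 min had 34, 90 in DESeq2, 6 with a replicate block and 0 with 2 groups. Of 8437 single-gene values 8345 kept their call and direction, 47 lost the call and 43 gained it. The 2 that reversed were amygdala minus frontal cortex differences: Csf1r at 120 min (0.002, adjusted p = 0.962) and Itgam at 30 min (-0.020, adjusted p = 0.749). The cause of these changes was not tested. Whole tissue, 3 to 6 animals a group and leading indexes that follow group or time limit the exposure and time results. An index block could not be fitted over all 3 times in frontal cortex. The fits of 2 times were added after seeing the data.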
